A study of Mus musculus with 10 samples.

Results

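The comparison described here sets 3 mouse mammary carcinoma lines labelled as circulating tumour cells (CTC) against 3 lines labelled as primary tumour, out of 10 libraries in all. The lines were taken by their titles, CTC 1, 3 and 6 against primary 5, 7 and 8, with 1 RNA-seq library per line. The model starts from 4T1-hHER2, a BALB/cfC3H mouse mammary gland line that was given human HER2 and luciferase by lentivirus, so every line carries that insert and no line is free of it. The primary lines are labelled as fat pad xenografts and the CTC lines as circulating tumour cells, both with the strain of the host, NOD-SCID-GAMMA (NSG), a strain that lacks T, B and NK cells. No drug treatment or age is given. The descriptions trace all derived lines, the primary ones included, back to CTCs collected from NSG mice after orthotopic inoculation. The 3 lung metastasis lines and the parental line are shown beside the comparison and are in neither of its groups. They were in the same fit, so the metastasis lines also shaped the spread behind its p-values. All are cultured lines and not cells taken directly from blood or tumour, and the labels do not say which lines share a mouse. The p-values therefore measure only the spread between these lines.

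Circulating tumour cells leave a tumour, travel in the blood as single cells or clusters, and seed distant organs. Leaving an epithelial sheet is classically tied to the epithelial-mesenchymal transition, in which cells lower E-cadherin, claudins and keratins under repressors of the Snail, Zeb and Twist families. 4T1 is a mouse line that spreads spontaneously from the mammary fat pad to the lung, and CTCs are often captured by the surface protein EpCAM.

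Host cells were looked for by lists of marker genes. Levels are given in CPM, the counts of named genes put on a common library size by TMM factors. Of 10 general leukocyte markers, 9 were under 1 CPM in all 6 lines, and the summed level was 0.934 to 1.85 CPM in primary and 1.89 to 5.92 CPM in CTC lines, nearly all of it Coro1a. All 8 neutrophil markers were under 1 CPM, and Adgre1 and C1qb (macrophage), Emcn (endothelium), Lep (fat) and Sftpc (lung epithelium) were at 0 in all 6 lines. The summed fibroblast markers were at 5.07 to 77.3 CPM in primary and 11.2 to 142 CPM in CTC lines, chiefly from Pdgfra, which was at 58.1 CPM in primary 5 and 141 CPM in CTC 3. The summed macrophage markers were at 3.5 to 10 CPM in primary and 8.33 to 17.1 CPM in CTC lines, chiefly Mertk. The summed endothelial markers were at 89.7 to 136.5 CPM in primary and 92.4 to 146 CPM in CTC lines, nearly all of it Eng, with the other 7 of 8 markers under 1 CPM. The summed adipocyte markers were at 6.1 to 19.3 CPM in primary and 6.57 to 18.1 CPM in CTC lines. Red cell and platelet, skeletal muscle and lung epithelial markers summed to at most 4.79 CPM in any of the 6 lines. The part of these markers in the results below was not tested. In bulk RNA, fewer cells of a type and less RNA per cell cannot be told apart.

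Library totals ran from 79869760 to 97722716 estimated counts, so depth was high and similar. edgeR's quasi-likelihood test called 0 of 19936 genes between CTC and primary lines (0%) after Benjamini-Hochberg adjustment at 0.05. At an unadjusted p under 0.05 it marked 809 genes (4.06%), 302 with a higher level in CTC lines (1.51%) and 507 with a lower level (2.54%). DESeq2 called 66 genes, 21 higher and 45 lower, limma-voom called 0, and limma-voom with library weights called 2 (Acap1 and Postn). For 1426 genes (7.15%) the 3 CTC values and the 3 primary values did not overlap, with CTC above in 624 (3.13%) and below in 802 (4.02%). The median log2 difference over all genes was -0.01. In what follows, "higher" and "lower" name only the sign of the fitted log2 difference, CTC minus primary, since no gene passed edgeR's test. SE marks the standard error where it is given with a log2 value.

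Lines of 1 group differed about as much as lines of different groups. Of 11313 genes with a mean log2 CPM of 1 or more, a pair of lines differed by at least 1 on the log2 scale in a median of 2490 genes between CTC and primary, 2347 among the primary lines and 3310 among the CTC lines. CTC 1 and CTC 3 were the most alike of the 15 pairs, with a correlation of 0.971 over log2 CPM and 720 genes (6.36%) differing by that much. CTC 6 lay elsewhere. It differed by that much from CTC 3 in 3589 genes (31.7%) but from primary 8 in 1370 (12.1%), and its correlation with primary 8 was 0.963 against 0.929 with CTC 3. Primary 5 in turn differed from CTC 1 in 1233 genes (10.9%) and from primary 8 in 2995 (26.5%). Genes within a library are not independent, and these figures describe the lines only. Without CTC 6 the count at an unadjusted p under 0.05 was 1982 and without primary 5 it was 1824. It was 462 without CTC 1, 527 without CTC 3, 489 without primary 7 and 601 without primary 8. edgeR called 0 genes in each of these 6 fits.

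**Figure D1:**
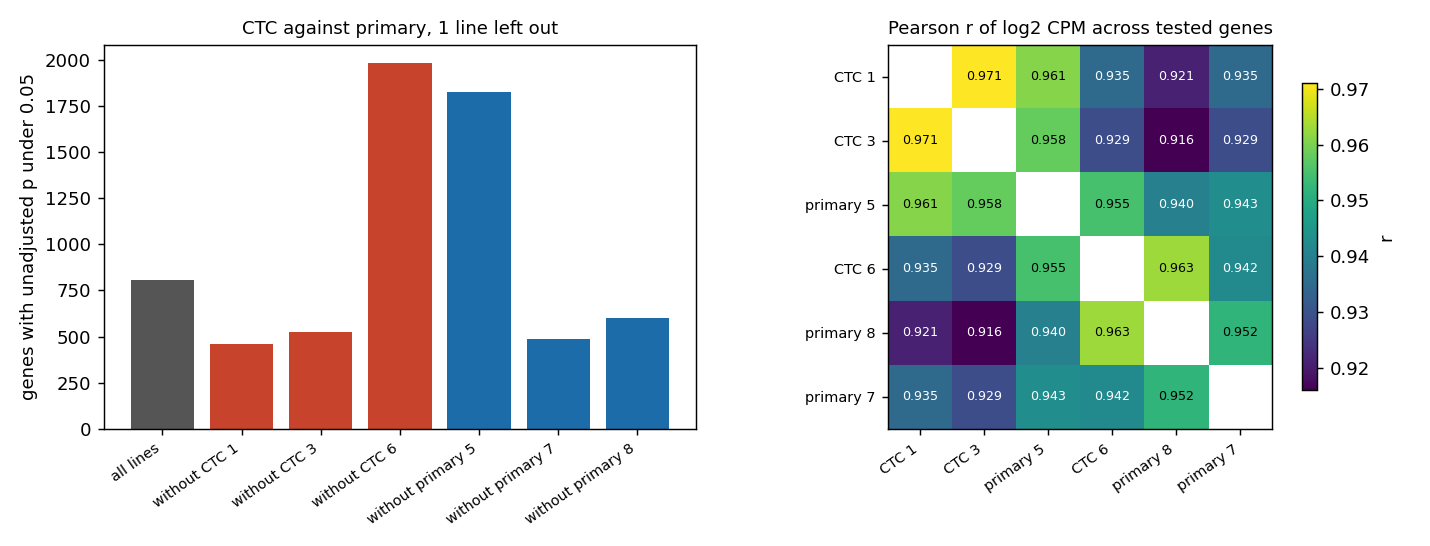
Left, number of genes at an unadjusted p under 0.05 (edgeR) with all lines and with each line left out. Right, Pearson correlation of log2 CPM between the CTC and primary libraries. The count is highest without CTC 6 (1982) and without primary 5 (1824), and CTC 1 with CTC 3 has a correlation of 0.971.

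Cell junction genes were mostly lower in the CTC lines. Of 29 junction genes, all tested, 24 were lower (82.8%) and 5 higher, and 8 were lower at an unadjusted p under 0.05 against 2.54% of all genes. For 7 of them every CTC value lay below every primary value, and for 0 every CTC value lay above, beside 4.02% and 3.13% over all genes. The median log2 difference of the 29 was -0.93, and -1.92 without CTC 6. Leaving out any other line gave -0.88 to -1.33. The 25 members with a mean log2 CPM of 1 or more had 20 lower and 5 higher and a median of -0.74.

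Afdn encodes afadin, which links nectins at adherens junctions to actin (chr17:13760539-13906150, plus strand, GRCm38). Its level was 46.9, 253 and 209 CPM in primary 5, 7 and 8 and 15.3, 10.5 and 20.8 CPM in CTC 1, 3 and 6. The groups did not overlap, and the lowest primary value was that of primary 5. The log2 difference was -3.45 (SE 0.58), with a Benjamini-Hochberg adjusted p of 0.72 in edgeR's quasi-likelihood test. Exons of Afdn overlap Tcte2 on the other strand, and whether counting used strand is not stated, so reads of the pair cannot be told apart.

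Epcam, the epithelial adhesion molecule used to capture CTCs (chr17:87635979-87651129, plus strand), was at 56.2, 204 and 134 CPM in primary 5, 7 and 8. In CTC 1, 3 and 6 it was at 16.5, 15.8 and 39.7 CPM. CTC 6 and primary 5 were the closest pair, and the groups did not overlap, with a log2 difference of -2.45 (SE 0.57). The transcript was thus present in all 3 CTC lines, at a lower level than in the primary lines.

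The claudins form the strands of tight junctions. Cldn4 (chr5:134945119-134946934, minus strand) was at 77.9, 437 and 156 CPM in the primary lines and 13.6, 14.9 and 54.1 CPM in the CTC lines, a log2 difference of -3.02 (SE 0.81). Cldn7 was at 4.15, 22.4 and 2.97 CPM in primary and 1.69, 1.56 and 1.36 CPM in CTC lines, a difference of -2.67 (SE 0.87). Neither overlapped between groups, while Cldn3 did. Cldn3 was at 12.7, 165 and 73.9 CPM in primary and 8.52, 18.5 and 21.9 CPM in CTC lines. Cldn1 was listed at 0 in all CTC lines and at 0.0558, 3.72 and 0.454 CPM in primary lines, so no fold is given.

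Of 3 further junction genes, 2 overlapped between the groups. Cdh1, which encodes E-cadherin, was at 107, 627 and 419 CPM in primary and 94.2, 77.7 and 150 CPM in CTC lines. CTC 6 lay above primary 5, so the groups overlapped, and the log2 difference was -1.84 (SE 0.76). Nectin2, an afadin-bound adhesion molecule, was at 53.7, 83.5 and 97 CPM in primary and 28.8, 28 and 47.5 CPM in CTC lines without overlap. Dsp, the desmosomal plaque protein desmoplakin, was at 63.1, 186 and 128 CPM in primary lines and 2.77, 12.8 and 88.5 CPM in CTC lines, so CTC 6 lay within the primary range. The members with the higher sign included the scaffold Tjp1 (0.64) and the catenins Ctnnb1 (0.26) and Ctnna1 (0.19), as log2 differences.

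Promoters of epithelial genes are classical targets of Snail and Zeb repressors, which bind the E-box CAGGTG and its reverse complement CACCTG. The 250 bases before the start of the gene, from RefSeq on GRCm38.p6, are shown for 3 genes whose groups did not overlap, to show where these letters stand. The sequences run 5′ to 3′ on the strand of the gene and capitals mark the E-box letters. Epcam lies at chr17:87635729-87635978 (plus strand), with CACCTG starting 187 and CAGGTG 19 bases before the start. Cldn4 lies at chr5:134946935-134947184 (minus strand), with CACCTG 14 bases before. Rab25, an epithelial trafficking GTPase described below, lies at chr3:88548280-88548529 (minus strand), with CACCTG 64 and CAGGTG 53 bases before.
Epcam: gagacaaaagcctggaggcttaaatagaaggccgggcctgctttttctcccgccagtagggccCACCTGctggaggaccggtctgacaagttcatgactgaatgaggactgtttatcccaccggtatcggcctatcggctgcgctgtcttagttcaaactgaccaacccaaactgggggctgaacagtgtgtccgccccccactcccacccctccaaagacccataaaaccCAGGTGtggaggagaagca
Cldn4: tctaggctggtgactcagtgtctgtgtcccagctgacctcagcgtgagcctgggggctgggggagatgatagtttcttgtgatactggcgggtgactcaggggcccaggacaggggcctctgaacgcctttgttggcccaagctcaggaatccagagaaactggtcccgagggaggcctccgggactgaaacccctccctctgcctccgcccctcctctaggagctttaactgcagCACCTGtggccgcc
Rab25: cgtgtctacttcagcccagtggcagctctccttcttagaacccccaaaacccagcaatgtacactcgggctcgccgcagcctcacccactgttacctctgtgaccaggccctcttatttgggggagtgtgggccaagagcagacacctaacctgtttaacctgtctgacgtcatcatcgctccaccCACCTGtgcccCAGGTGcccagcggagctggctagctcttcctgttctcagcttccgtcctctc
Either form of the E-box, on either strand, stood in 5 of 18 junction promoters in the table (27.8%), 5 of 7 keratin promoters (71.4%) and 4 of 7 promoters of epithelial regulators (57.1%). Of the 12006 tested genes with an entry, 1881 held it (15.7%), as did 4620 of all 27025 listed genes (17.1%). Of the keratins with the E-box, Krt7 was lower, Krt8, Krt18 and Krt23 had the higher sign and Krt5 was too low to be tested, while Krt14 and Krt20, both lower, had none. Among the regulators Grhl3, Elf3 and Rab25 were lower and Spint2, with 3 matches, had the higher sign. The window of Afdn held none. A match describes the letters and not the binding of a factor.

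Keratins, the intermediate filaments of epithelium, were also mostly lower. Of 12 keratin genes 10 were tested, 7 lower and 3 higher, with 4 lower at an unadjusted p under 0.05 (2.54% over all genes) and a median log2 difference of -2.61. That median was -3.80 without CTC 6, -1.79 without primary 7 and -1.64 without primary 8. Among the 5 keratins with a mean log2 CPM of 1 or more, 3 were lower and 2 higher, with a median of -1.53.

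The keratins did not all follow one pattern. Krt14 and Krt17, basal keratins, were high in primary 7 alone. Krt14 was at 3.23, 78.3 and 9.15 CPM in primary and 0, 0.0619 and 0.366 CPM in CTC lines. Krt17 was at 0.795, 84.7 and 1.76 CPM in primary and 0.08, 0.108 and 0.29 CPM in CTC lines. Both had groups that did not overlap, although the CTC counts are too few for a firm fold. Krt80 was at 28.1, 110 and 125 CPM in primary and 13.7, 21.8 and 30.5 CPM in CTC lines, a log2 difference of -2.00 (SE 0.55), with CTC 6 above primary 5. The luminal pair Krt8 and Krt18 showed no such gap. Krt18 was at 1209, 1077 and 1063 CPM in primary and 1462, 1395 and 588 CPM in CTC lines, a difference of 0.04, and Krt8 had a difference of 0.26.

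The factors that keep the epithelial program leaned the same way. Of 15 epithelial regulators, all tested, 11 were lower and 4 higher, 3 were lower at an unadjusted p under 0.05 (2.54% over all genes), and 3 had CTC below primary (4.02% over all genes). The median log2 difference was -0.83, and -1.90 without CTC 6, -0.54 without CTC 1, -0.47 without CTC 3 and -0.50 without primary 8. Over the 9 members with a mean log2 CPM of 1 or more it was -0.29, with 6 lower and 3 higher. Esrp1, a splicing factor of the epithelial state, was at 12.6, 122 and 17.7 CPM in primary and 2.13, 0.914 and 4.32 CPM in CTC lines. Its log2 difference was -4.37 (SE 1.76), and its exons overlap Gm26663 on the other strand. Rab25 was at 1.7, 26.1 and 0.344 CPM in primary and 0.147, 0.0774 and 0 CPM in CTC lines. The repressor Ovol2 was low in every line, at most 2.89 CPM in primary and 0.183 CPM in CTC lines. Grhl2, a master factor of epithelial genes, overlapped, with 61 CPM in CTC 6 against 9.67 and 18.4 CPM in CTC 1 and 3.

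Mesenchymal genes showed no common direction that held with each line left out. Of 20 factors and markers of the epithelial-mesenchymal transition, 19 were tested, 12 higher and 6 lower with 1 at 0 in all 6 lines, and the median log2 difference was 0.23. It ran from 0 without CTC 3, with 0.07 without primary 8, to 0.97 without primary 5. In 1 member CTC lay above primary and in 2 below, beside 3.13% and 4.02% of all genes. Only Twist1, a repressor of E-cadherin, was marked at an unadjusted p under 0.05 (4.06% over all genes). It was at 48.7, 34.9 and 30.4 CPM in primary and 78.1, 93.3 and 54.3 CPM in CTC lines, which did not overlap, with a difference of 0.99 (SE 0.38). Vim, the gene of vimentin, was at 3722, 2117 and 955 CPM in primary and 4750, 4485 and 1443 CPM in CTC lines. The spread within each group exceeded the log2 difference of 0.65 (SE 0.70). Fn1, which encodes fibronectin and counts as mesenchymal, had the other sign. It was at 3300, 4160 and 4160 CPM in primary and 1170, 2582 and 3150 CPM in CTC lines, with a difference of -0.75 (SE 0.39). Snai1 (-0.08), Zeb1 (0.10) and Zeb2 (0.39) had small log2 differences.

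Primary 7 stood highest and CTC 3 lowest among these 6 lines for both the junction genes and the epithelial regulators. As medians over the junction genes of log2 CPM relative to the mean of the 3 primary lines, the primary lines 5, 7 and 8 stood at -0.86, 0.82 and -0.01, and CTC 1, 3 and 6 at -1.03, -1.49 and -0.49. CTC 6 thus lay above primary 5. For the epithelial regulators the primary lines stood at -0.57, 0.63 and -0.00 and the CTC lines at -1.65, -1.74 and 0.04.

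**Figure D2:**
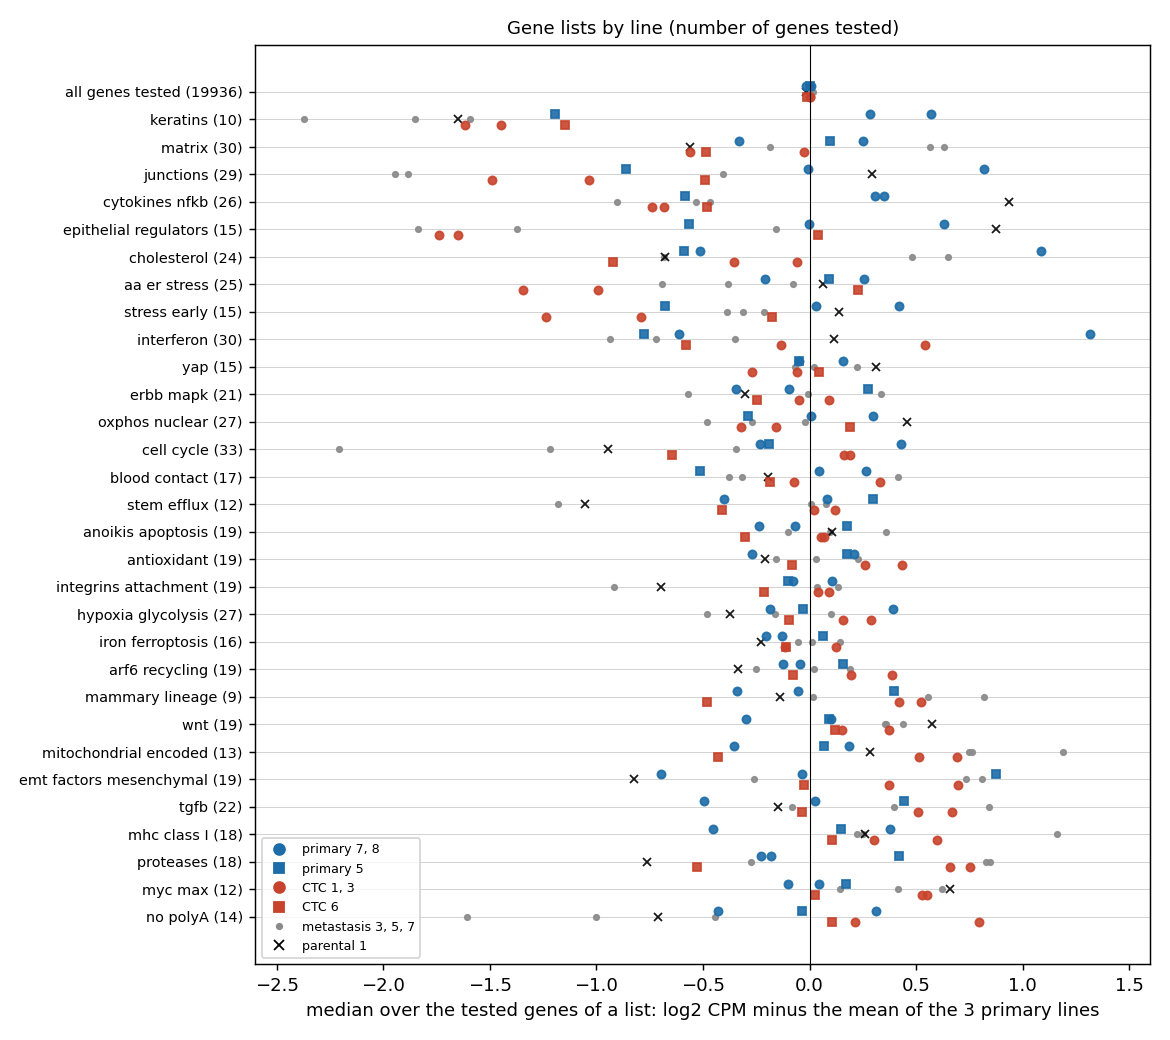
Median over the members of each gene list of log2 CPM minus the mean of the 3 primary lines, for each of the 10 lines. For junction genes CTC 1 and CTC 3 lie at -1.03 and -1.49, while CTC 6 (-0.49) lies above primary 5 (-0.86).

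Outside the epithelial lists, Acap1 had the smallest p of all genes (chr11:69881567-69895539, minus strand). It encodes a GTPase-activating protein for ARF6 that sorts integrins for return to the cell surface. Its level was 33.7, 60.6 and 47.6 CPM in primary 5, 7 and 8 and 5.17, 8.02 and 8.66 CPM in CTC 1, 3 and 6. Each group was tight and the groups lay far apart. The log2 difference was -2.70 (SE 0.34), with a Benjamini-Hochberg adjusted p of 0.451 in edgeR's quasi-likelihood test. The rest of the ARF6 recycling list did not share this. Of its 19 genes 12 were higher and 7 lower, and the median was 0.15 (0.07 to 0.28 with a line left out). Acap1 was the only one marked at an unadjusted p under 0.05, beside 4.06% of all genes.

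Slc40a1 encodes ferroportin, the cell's iron exporter (chr1:45908068-45926523, minus strand). It was at 6.72, 5.38 and 11.7 CPM in primary and 0.6, 0.79 and 1.16 CPM in CTC lines, again without overlap. The log2 difference was -3.22 (SE 0.52). Among the 16 tested genes of iron handling and ferroptosis, 10 were higher and 6 lower, with a median of 0.09 (-0.05 without CTC 6 to 0.18 without primary 5). Slc40a1 alone was at an unadjusted p under 0.05, beside 4.06% of all genes. Fth1, the ferritin heavy chain that stores iron, was at 4158, 2278 and 2012 CPM in primary and 6488, 3551 and 3172 CPM in CTC lines, which overlapped.

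Zbtb20, a BTB and zinc finger repressor (chr16:42875881-43642602, plus strand), was at 38.9, 22.4 and 12.9 CPM in primary and 1.47, 2.69 and 0.549 CPM in CTC lines. The log2 difference was -3.98 (SE 0.65). Its exons overlap Gm9968 on the other strand and Mir568 on the same strand. In edgeR's quasi-likelihood test, Slc40a1 and Zbtb20 both had a Benjamini-Hochberg adjusted p of 0.672.

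The other named genes with lower values were spread over several functions. Bhlhe40, a repressor tied to the clock and hypoxia, was at 53.7, 241 and 204 CPM in primary and 28.4, 37.2 and 36.3 CPM in CTC lines, a log2 difference of -2.29 (SE 0.49). Pdgfb, a growth factor for pericytes and fibroblasts, was at 26.7, 73.2 and 96.3 CPM in primary and 4.64, 14.2 and 16.4 CPM in CTC lines, a difference of -2.48 (SE 0.61). Ackr3, a scavenging receptor for CXCL12, was at 22.3, 37.7 and 38.6 CPM in primary and 5.19, 12.1 and 13 CPM in CTC lines, a difference of -1.70 (SE 0.45). In all of these CTC 6 or CTC 3 came nearest to primary 5. The set was completed by Platr16, a noncoding RNA (-1.16, SE 0.25), Ints1, an Integrator subunit (-1.20, SE 0.32), and Fgfbp1, a carrier of fibroblast growth factors (-4.33, SE 1.16), all without overlap. Fgfbp1 was at 3.04, 71.9 and 9.36 CPM in primary and 0.773, 1.35 and 2.06 CPM in CTC lines, so primary 7 stood far above the rest. Bhlhe40 shares exon bases with 0610040F04Rik on the other strand. Platr16 shares them with Gm13230 and Ints1 with Mir7037, both on the same strand, so these levels are uncertain to that extent.

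**Figure D3:**
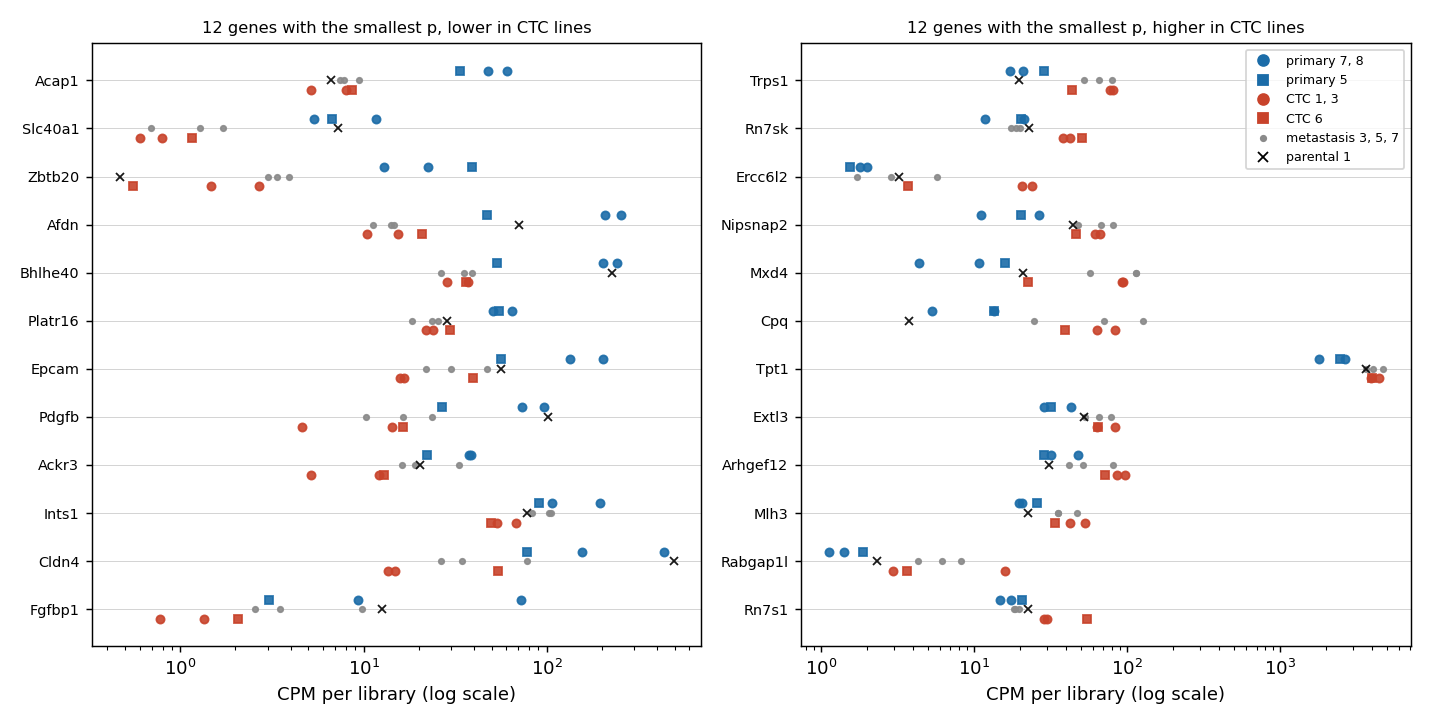
CPM per library (log axis) of the 12 named genes with the smallest p in each direction. Each point is 1 line, and squares mark CTC 6 and primary 5. Each of these lies nearest to the other group in 9 of the 12 genes with lower CTC values. Among the 12 genes with higher CTC values, CTC 6 lies nearest in 7 and primary 5 in 5.

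Among the genes with higher values in CTC lines, Trps1 had the smallest p (chr15:50654752-50890463, minus strand). It encodes a GATA-type repressor of the mammary lineage. It was at 28.4, 20.8 and 17.1 CPM in primary and 80.8, 77.3 and 43.4 CPM in CTC lines, a log2 difference of 1.61 (SE 0.33) without overlap. Of the 9 tested mammary lineage genes, 6 were higher and 3 lower, and the median was 0.17 (-0.03 without CTC 3, -0.02 without CTC 1 or primary 7, and 0.60 without primary 5). Trps1 was the only one at an unadjusted p under 0.05, beside 4.06% of all genes. Tfap2c, another luminal factor, was at 15, 1.22 and 1.99 CPM in primary and 45.5, 30.8 and 10 CPM in CTC lines, which overlapped.

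Mxd4 encodes a partner of MAX that opposes MYC (chr5:34173883-34187720, minus strand). It was at 15.9, 10.8 and 4.38 CPM in primary and 94.2, 92.6 and 22.5 CPM in CTC lines, a log2 difference of 2.75 (SE 0.65). CTC 6 had the lowest CTC level and the groups did not overlap. Mga, another MAX partner, was at 8.71, 8.85 and 10.6 CPM in primary and 14.6, 12.4 and 25.9 CPM in CTC lines, a difference of 0.91 (SE 0.36). Max itself was at 84.5, 85 and 133 CPM in primary and 135, 139 and 135 CPM in CTC lines. These 3 were the members with CTC above primary (3.13% over all genes) among 12 tested genes of the MYC and MAX network, of which 8 were higher and 4 lower, with a median of 0.41 (0.19 without CTC 3, 0.25 without primary 7 and 0.66 without primary 5). Myc was set by line, at 408, 443 and 1738 CPM in primary and 217, 202 and 1436 CPM in CTC lines, so primary 8 and CTC 6 stood together.

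Small noncoding RNAs without a poly(A) tail were higher too. Rn7sk, the 7SK RNA that restrains the elongation factor P-TEFb (chr9:78175303-78175633, minus strand), was at 20.3, 11.8 and 21.2 CPM in primary and 38, 42.5 and 50.7 CPM in CTC lines, a log2 difference of 1.30 (SE 0.29). Rn7s1 was at 20.5, 14.7 and 17.5 CPM in primary and 28.7, 30 and 55 CPM in CTC lines. Rmrp, the RNA of the RNase MRP enzyme, was at 6.09, 3.03 and 5.06 CPM in primary and 8.16, 7.43 and 16.8 CPM in CTC lines. Among 14 tested RNAs of this kind, with the replication histones, 11 were higher and 3 lower, and the median was 0.54 (0.07 without CTC 1, 0.32 without primary 7 and up to 0.69 without CTC 3). The libraries are labelled as polyA RNA while the protocol names a total RNA kit, so how much of such RNA a library holds can differ with its preparation, and its part in these values was not tested.

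Other genes with higher values included Cpq, a lysosomal carboxypeptidase, at 13.4, 5.3 and 13.5 CPM in primary and 63.9, 83 and 39.3 CPM in CTC lines (log2 difference 2.53, SE 0.62). Nipsnap2, a mitochondrial protein gene, was at 20.2, 11.1 and 26.7 CPM in primary and 66.5, 61.4 and 46.5 CPM in CTC lines (1.59, SE 0.36). Ercc6l2, a helicase of DNA repair, was at 1.53 to 2.0 CPM in primary lines and 23.8 and 20.6 CPM in CTC 1 and 3. CTC 6 had 3.72 CPM, so its log2 difference of 3.17 (SE 0.72) leaned on the other CTC lines. Tpt1, a very abundant growth-related protein gene, was at 2475, 1804 and 2640 CPM in primary and 4441, 3936 and 3997 CPM in CTC lines, a difference of 0.84 (SE 0.21). Arhgef12, an activator of RhoA, was at 28.4, 32 and 47.6 CPM in primary and 97.1, 86.4 and 71.8 CPM in CTC lines (1.24, SE 0.33). The others were Extl3 of heparan sulfate synthesis (1.03, SE 0.27), the mismatch repair gene Mlh3 (0.97, SE 0.27) and Rabgap1l (2.36, SE 0.67). Rabgap1l was at 1.87, 1.41 and 1.13 CPM in primary and 2.95, 16 and 3.66 CPM in CTC lines, so CTC 3 stood far above the rest. Trps1, Cpq, Mxd4, Arhgef12, Rabgap1l, Rn7s1 and Rmrp share exon bases with other annotated genes and are uncertain to that extent. Beyond the 4 genes whose adjusted p is given above, each of the 24 named genes had a Benjamini-Hochberg adjusted p of 0.994 in edgeR's quasi-likelihood test.

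Genes of the extracellular matrix were more often lower. Of 30, 19 were lower, 10 higher and 1 at 0 in all 6 lines, 9 were lower at an unadjusted p under 0.05 (2.54% over all genes), and 5 had CTC below primary (4.02%). The median log2 difference was -1.19, but it was -0.11 without primary 7 and -0.71 without primary 5, and it was -1.43 without primary 8. Over the 17 members with a mean log2 CPM of 1 or more it was -0.13, with 10 lower and 7 higher. Postn, the gene of periostin, was at 8.59, 11.2 and 19.4 CPM in primary lines and at most 0.0915 CPM in CTC lines. Col7a1, the anchoring fibril collagen, was at 55.9, 371 and 104 CPM in primary and 19.4, 40.3 and 39.8 CPM in CTC lines (-2.42, SE 0.69). Fbln2, the matrix protein fibulin-2, was at 317, 620 and 309 CPM in primary and 69.8, 132 and 276 CPM in CTC lines (-1.38, SE 0.52).

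The 18 genes of matrix proteases and their inhibitors were split, 10 higher and 8 lower, with a median of 0.28 (-0.02 without CTC 3, 0.18 without CTC 1, 0.09 without primary 8 and up to 0.58 without CTC 6). Mmp9, a gelatinase, was at 40.8, 76.1 and 43.1 CPM in primary and 14.6, 27.1 and 20.5 CPM in CTC lines (-1.36, SE 0.47). The lysosomal protease gene Ctsb had the other sign, at 683, 466 and 637 CPM in primary and 783, 862 and 1021 CPM in CTC lines (0.58, SE 0.23). Neither overlapped. Of the 17 tested genes of blood contact 10 were lower and 7 higher, with a median of -0.05, from -0.51 without CTC 3 to 0.15 without primary 7.

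Cytokine and NF-kB genes had 18 lower and 8 higher among 26 tested, with 6 lower at an unadjusted p under 0.05 (2.54% over all genes) and 5 with CTC below primary (4.02%). The median log2 difference was -0.90 (-0.40 without primary 8, -0.47 and -0.59 without CTC 3 and CTC 1, and -1.17 without primary 5), and -0.05 over the 17 members with a mean log2 CPM of 1 or more. Il1a was at 0.558, 9.7 and 3.11 CPM in primary and 0.36, 0.0774 and 0.183 CPM in CTC lines. Il6 was listed at 0 in all CTC lines and stayed under 1 CPM in the primary lines. Csf1, the macrophage growth factor, was at 270, 626 and 764 CPM in primary and 207, 307 and 345 CPM in CTC lines, which overlapped.

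Several lists turned on single lines. Of 24 cholesterol synthesis genes 21 were lower, with a median of -0.74, but the median was 0.13 without primary 7 and -1.05 without primary 5. As medians relative to the primary mean, primary 5, 7 and 8 stood at -0.59, 1.09 and -0.52 and CTC 1, 3 and 6 at -0.35, -0.06 and -0.92. Fdps, which makes farnesyl pyrophosphate, was at 58, 286 and 104 CPM in primary and 60.3, 63.7 and 64.2 CPM in CTC lines, which overlapped through primary 5. Of 30 interferon genes 23 were lower, with a median of -0.43, and 0.58 without primary 7, -0.24 without CTC 6 and -0.76 without primary 8. Ifi44 was at 4.6, 36.7 and 21.2 CPM in primary and 5.89, 3.27 and 11.3 CPM in CTC lines. For amino acid and ER stress genes, 17 of 25 were lower with a median of -0.56. It was -1.17 without CTC 6, -0.22 without CTC 1, -0.19 without CTC 3 and -0.32 without primary 8. Atf3, a stress factor on that list, was at 101, 55.3 and 332 CPM in primary, 5.03 and 6.3 CPM in CTC 1 and 3, and 281 CPM in CTC 6. Against that list's direction, Xbp1, which drives the secretory branch of the unfolded protein response, was at 59.1, 43.5 and 66.2 CPM in primary and 114, 93.4 and 84.1 CPM in CTC lines without overlap.

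Antigen presentation leaned upward. Of 18 genes of MHC class I, 13 were higher and 5 lower, and the median was 0.25 (0.04 without CTC 1 or primary 8, and 0.40 without primary 7). At an unadjusted p under 0.05, 0 were marked, beside 4.06% of all genes. H2-K1 was at 99.4, 113 and 109 CPM in primary and 178, 148 and 211 CPM in CTC lines. B2m, the shared light chain, was at 910, 881 and 631 CPM in primary and 1222, 963 and 1168 CPM in CTC lines. These did not overlap, nor did Erap1, a peptide trimming enzyme. Of the 13 genes encoded by the mitochondrial genome 12 were higher, with a median of 0.21 (0.01 without CTC 1, 0.13 without CTC 3, 0.10 without primary 8, 0.42 without primary 7 and 0.53 without CTC 6). mt-Nd3 was at 109, 116 and 76.6 CPM in primary and 211, 158 and 126 CPM in CTC lines. Mitochondrial genes took 2.22%, 2.01% and 1.07% of the counts of CTC 1, 3 and 6 and 1.63%, 1.67% and 1.14% in primary 5, 7 and 8, and the part of this share was not tested.

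Other programs showed small medians. The 33 cell cycle genes had 21 lower and 12 higher, and a median of -0.08 (-0.19 without CTC 3 to 0.23 without CTC 6). They had 0 members at an unadjusted p under 0.05, beside 4.06% of all genes. Medians lay between -0.19 and 0.24 for integrins and attachment, cell death on detachment, antioxidant defence, stem cell and efflux genes, hypoxia and glycolysis, nuclear respiratory chain genes, the ERBB and MAPK pathway, TGF-beta, WNT and YAP. With a line left out these ran from -0.42 (ERBB and MAPK, without primary 7) to 0.51 (TGF-beta, without primary 5). Of the early stress genes 12 of 15 were lower, with a median of -0.51 (-0.90 without CTC 6 to -0.21 without primary 8) and 0 marked. Single members still had groups that did not overlap. The drug efflux pump Abcb1a was at 12.1, 6.79 and 11.1 CPM in primary and 3.24, 4.57 and 5.99 CPM in CTC lines (-1.12, SE 0.38), and Abcc1 was at 154, 86.7 and 74.4 CPM in primary and 70, 60.2 and 60.4 CPM in CTC lines (-0.72, SE 0.30). Itgb6, the beta subunit of an integrin that activates latent TGF-beta, was at 0.627, 8.09 and 2.1 CPM in primary and 0.08, 0.17 and 0.366 CPM in CTC lines. Mouse Erbb2, the lines' own counterpart of the inserted human receptor, was at 52.2, 51.6 and 33.4 CPM in primary and 52.6, 43.3 and 25.9 CPM in CTC lines, a difference of -0.17 (SE 0.32). Exons of Erbb2 overlap Mien1 on the other strand, and whether reads of the human insert were counted as Erbb2 was not tested.

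The metastasis and parental lines give the levels of these genes elsewhere in the model. In metastasis 5, 3 and 7, Acap1 was at 7.86, 9.4 and 7.49 CPM, Afdn at 14.1, 14.7 and 11.3 CPM and Trps1 at 79.7, 65.5 and 51.9 CPM. The parental library had 6.66, 70.6 and 19.6 CPM of these genes. Epcam was at 21.9, 30 and 47 CPM in the metastasis lines and 56 CPM in the parental library. As medians over the junction genes relative to the primary mean, metastasis 5, 3 and 7 stood at -1.88, -1.94 and -0.41. The parental library stood at 0.29. For the epithelial regulators the metastasis lines stood at -1.37, -1.84 and -0.16 and the parental library at 0.88. Lower medians than the primary mean were thus also seen in the metastasis lines. Rn7sk was at 18.8, 19.9 and 17.5 CPM in the metastasis lines and 22.9 CPM in the parental one. Of the 12 named genes with lower values in CTC lines, the parental level was nearer to the CTC lines in 5, and of the 12 with higher values in 3.

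Against the metastasis lines, edgeR's quasi-likelihood test called 1 of 19936 genes (0.00502%) after the same adjustment. At an unadjusted p under 0.05 it marked 656 (3.29%). It was Pelo, a factor that rescues stalled ribosomes, named here after its values were seen. Its exons overlap Gm49395 on the same strand and Gm10734 on the other, so its level is uncertain to that extent. Pelo was at 7.79, 10.2 and 8.11 CPM in CTC 1, 3 and 6 and 0.794, 0.629 and 0.573 CPM in metastasis 5, 3 and 7. The groups lay far apart, with a log2 difference, CTC minus metastasis, of 3.71 (SE 0.35) and a Benjamini-Hochberg adjusted p of 0.0408 in edgeR's test. Pelo had 6.68, 7.92 and 9.2 CPM in the primary lines, so it did not separate CTC from primary. The call was lost without CTC 1 or CTC 6, without any 1 of the primary or metastasis lines, with no filter on low counts, and with assembled transcripts included. Leaving out metastasis lines was added after the data had been seen.

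At the level of transcripts, edgeR called 0 of 61244 between CTC and primary lines (0%), and 2638 (4.31%) had an unadjusted p under 0.05. For 4790 (7.82%) the groups did not overlap, 2455 with CTC below (4.01%) and 2335 with CTC above (3.81%). StringTie shares reads among overlapping transcripts, so a transcript's count is an estimate that depends on its neighbours. The differences nevertheless marked genes whose total was level. Capzb encodes the beta subunit of the actin capping protein, and its gene total was 222, 240.5 and 228 CPM in primary and 224, 265 and 151 CPM in CTC lines, a log2 difference of -0.11 (SE 0.26). Capzb-204 held 95.3 ± 1.6% (SD, n = 3) of the CPM of the gene's transcripts in primary lines and 26.9 ± 6.7% (SD, n = 3) in CTC lines. Its level was 216, 225 and 238 CPM in primary and 74.9, 81.8 and 28.5 CPM in CTC lines. The transcripts Capzb-201, Capzb-202 and Capzb-203 had the other sign. Capzb-203 was at 4.9, 4.13 and 6.37 CPM in primary and 51.5, 45.8 and 20 CPM in CTC lines, a log2 difference of 2.93 (SE 0.58). In the metastasis lines Capzb-204 was at 214, 206 and 155 CPM and in the parental library at 74.9 CPM.

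Clta-204, a transcript of clathrin light chain A, had 657, 1296 and 974 counts in primary 5, 7 and 8 and 1, 0 and 0 counts in CTC 1, 3 and 6. It had 1211, 1521 and 502 counts in metastasis 5, 3 and 7 and 836 in the parental library, while the gene differed by 0.03 (SE 0.21) between CTC and primary. Ctsd-201, of the lysosomal protease cathepsin D, had 8062, 880 and 548 counts in primary lines and 0 in each CTC line, with a gene difference of 0.43 (SE 0.37). Both transcripts were thus at 0 or 1 count in the CTC lines and at 502 counts or more in every other library. Both were minor transcripts of their genes in the primary lines. Of the CPM of the gene's tested transcripts, Clta-204 held 4.5%, 7.1% and 6.0% in primary 5, 7 and 8. Ctsd-201 held 18.7%, 3.2% and 1.9% there. The Benjamini-Hochberg adjusted p of Clta-204 in edgeR's quasi-likelihood test was 0.186.

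The other named transcripts followed their genes or, like Clta-204 and Ctsd-201, were minor forms. Acap1-201 and Slc40a1-201 held most of the counts of their genes and were lower, by log2 differences of -2.76 (SE 0.38) and -3.28 (SE 0.60). Banp-202 had 34, 21 and 57 counts in primary and 417, 357 and 220 counts in CTC lines. Tcf25-201 (2.86, SE 0.57) and Arid1b-203 (3.39, SE 0.68) were minor transcripts with higher values. Ywhaq-ps3-201, a processed pseudogene whose reads can be shared with its parent gene, had 101, 209 and 79 counts in primary and 1565, 1573 and 695 counts in CTC lines.

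**Figure D4:**
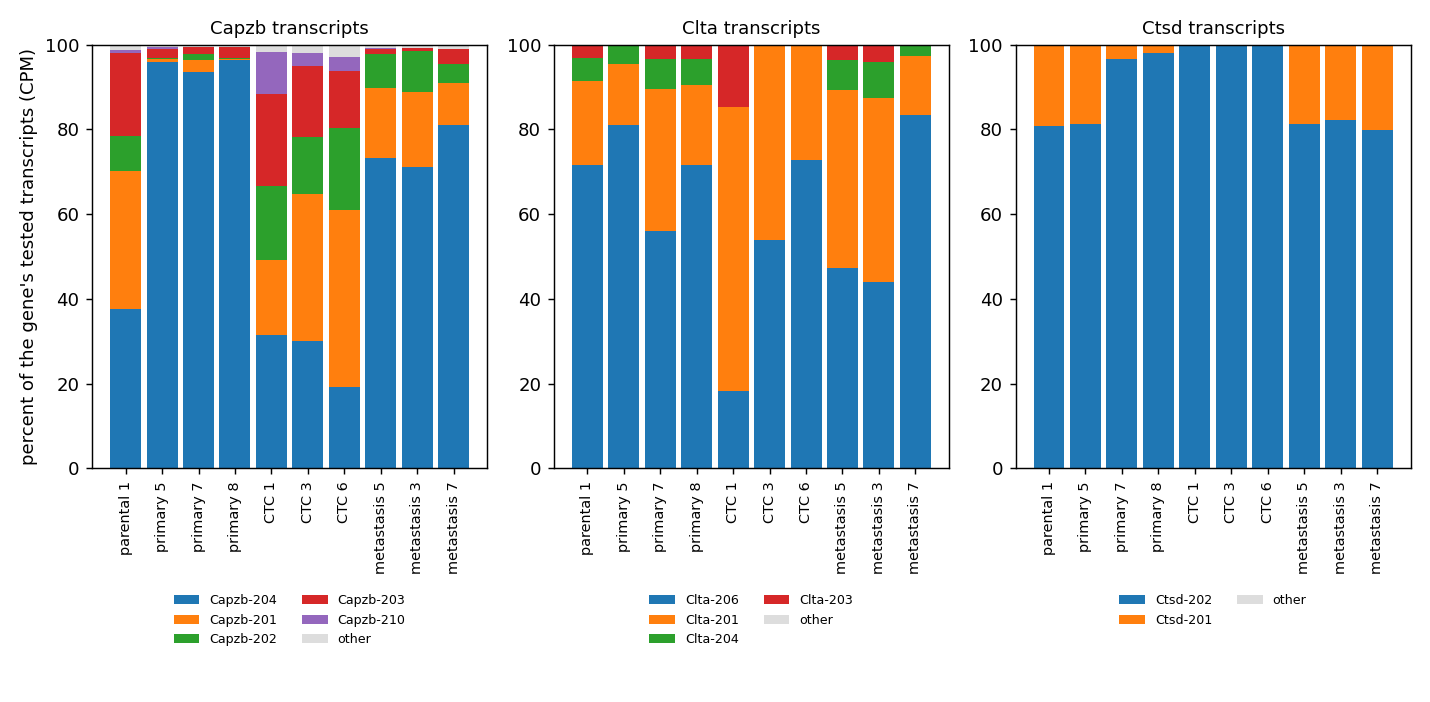
Share of each gene's transcript CPM taken by each transcript, stacked by line, for Capzb, Clta and Ctsd. Capzb-204 takes 95.3% on average in primary lines and 26.9% in CTC lines. Clta-204 and Ctsd-201 are absent or at 1 count in the CTC lines.

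The genes were also read by chromosome, as a description of neighbours that moved together. Over genes with a mean log2 CPM of 1 or more, chromosome 12 had the highest median difference, 0.24 over 402 genes, with 291 higher (72.4%). The other chromosomes had medians from -0.15 (chromosome 17, 34% higher) to 0.14. By line, relative to the mean of the primary lines, the chromosome 12 median was 0.25, 0.36 and 0.06 in CTC 1, 3 and 6. It was -0.01, -0.05 and 0.07 in primary 5, 7 and 8, so CTC 6 lay within the primary range. Metastasis 3 stood at 0.35 and metastasis 5 at -0.24. In windows of 10 Mb along the chromosome, 10 of 11 windows were above 0 in CTC 1, 11 in CTC 3 and 5 in CTC 6, against 5, 2 and 10 in the primary lines. DNA copy number was not measured in these files.

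**Figure D5:**
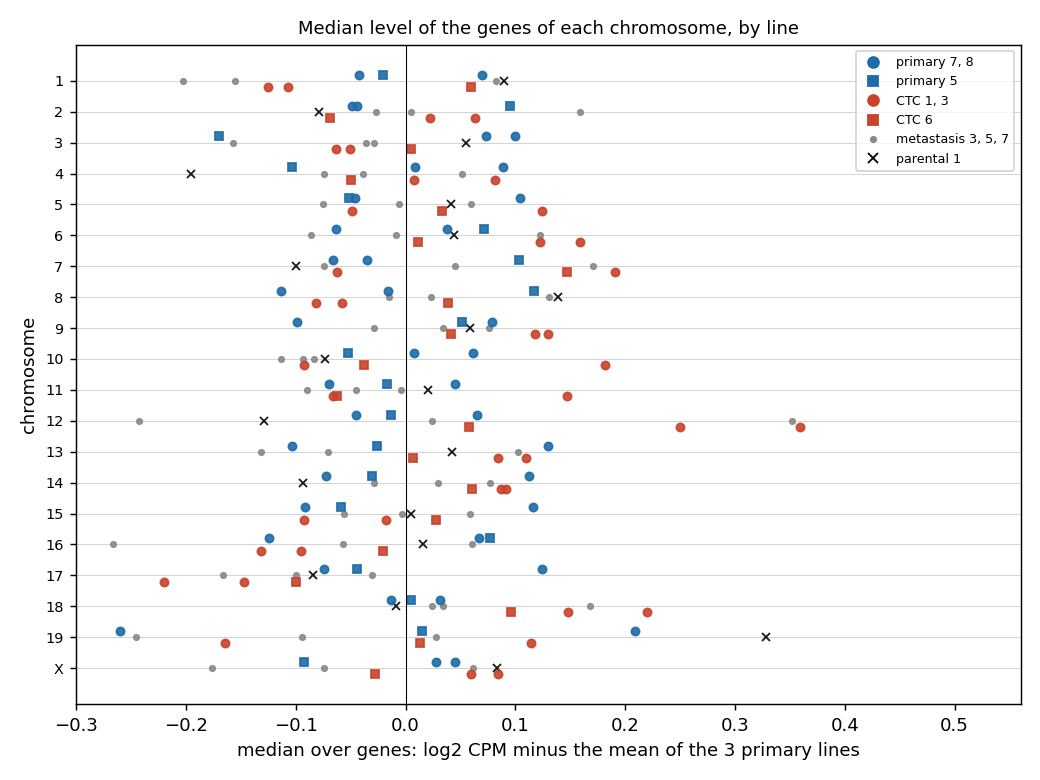
Median over the genes of each chromosome of log2 CPM minus the mean of the 3 primary lines, with 1 point per line. On chromosome 12, CTC 1 (0.25), CTC 3 (0.36) and metastasis 3 (0.35) lie to the right of the primary lines, and CTC 6 (0.06) lies among them.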

How the data were processed

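Per the labels' protocols, RNA was prepared with a TruSeq total RNA kit and sequenced paired-end on a HiSeq 2500. The submitters' processing notes name HISAT2 2.1.0, StringTie 2.0.3, DESeq2 1.26.0 and GRCm38, with no settings. The authors deposited unscaled tables of estimated counts, 1 for genes and 1 for transcripts. Which annotation release they used is not given here, and GENCODE M21 gave positions and overlaps. Of 72544 gene entries, 55418 carry a name and 17126 are assembled transcripts, which took 19.7% to 22.8% of a library's counts and were left out of the tests, so reads of a named gene may be counted there. A transcript entry filled in 1 column was left out, and 0 sample columns went unused.

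Counts were rounded and tested with edgeR 4.0.16 (R 4.3.3): TMM, filterByExpr, 1 quasi-likelihood fit of 10 libraries in 4 groups, and Benjamini-Hochberg adjustment at 0.05 over all genes. The parental group has 1 library, assumed to vary like the others. SE is the absolute log2 difference over the square root of F. The common biological coefficient of variation was 0.606, and the scripts were tested on simulated data. Alternatives used other scalings and filters, limma 3.58.1, DESeq2 1.42.0 and left-out lines. Named genes have a mean log2 CPM at or above 1, an established symbol and groups that do not overlap, the 12 with the smallest p in each direction, and besides them the 3 smallest p of each list, Erbb2, Epcam, Cdh1, Vim and Ptprc. For transcripts the 5 with the smallest p in each direction were named at a mean log2 CPM at or above 0. Other list members and the gene Capzb were described beside them. Some members of the lists are not reported here. The comparison, its 27 pathway lists, 3 quality lists and 9 host cell lists were chosen with earlier results of these data known, so list counts are a description, and no list was tested. Log2 CPM used a prior count of 2 and correlations are across genes.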

Additional observations from a re-analysis of the deposited data

How the results depend on the processing

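Each group has 3 lines, the biological coefficient of variation was 0.606, and the part of depth in the lack of calls was not tested. edgeR's 0 genes between CTC and primary lines became 66 with DESeq2 and 2 with limma-voom and library weights, and stayed at 0 with each line left out (0 to 0) and under the other scalings and filters run. The 0 transcripts became 530 with DESeq2 and 2 with limma-voom and library weights, and were 0 to 0 with each line left out. The 1 gene between CTC and metastasis lines became 27 with DESeq2, 0 with no filter and 0 with assembled transcripts included, and 0 to 1 with a line left out, metastasis lines included (a choice made after seeing the data). The 1426 genes without overlap became 905 where at least 1 CPM in 3 libraries was required, 2655 with assembled transcripts included, and 2217 to 6836 with a line left out, where fewer values have to separate. The 809 at an unadjusted p under 0.05 became 466 at 1 CPM in 3 libraries, 2894 with limma-voom and library weights, 1377 with assembled transcripts included, and 462 to 1982 with a line left out. With only the CTC and primary lines in the fit, that count was 546. Apart from that use of fewer or other entries and lines, the cause was not tested. The log2 difference of Erbb2 turned to 0.0070 with limma-voom and library weights and ran from -0.40 (without CTC 1) to 0.069 (without CTC 6). That of Ptprc was -0.29 without primary 8 and 0.35 without CTC 1. Over the 13 alternatives run for Ptprc, its log2 difference ran from -2.12 to 0.35. Of 1840 values of named genes under alternatives, 1811 kept their sign and side of the threshold, 25 passed it with the same sign and 4 turned. Of 527 list medians, 490 moved by less than the spread between lines and 37 by more. The larger shifts with a line left out stand beside the lists. Under the other settings the medians reached -0.38 for cytokines, -1.64 for keratins, -0.15 for matrix, -0.15 for integrins, -1.65 for epithelial regulators and -1.02 for amino acid and ER stress genes. No paired analysis was possible because CTC 1, 3 and 6 and primary 5, 7 and 8 share no number. With the title number as a random replicate block over the 9 derived lines, which ties both groups only to metastasis lines, limma-voom gave 0 genes (740 at an unadjusted p under 0.05) between CTC and primary and 1 gene between CTC and metastasis lines, with a same-number correlation of 0.531.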

Other observations

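Entries that were filled in every line of one group and empty in the other were counted after the values had been seen. Of 17126 assembled transcripts, which carry no gene name, 26 had at least 30 counts in each of primary 5, 7 and 8 and 0 counts in CTC 1, 3 and 6. The reverse, at least 30 counts in each CTC line and 0 in each primary line, held for 16. Of 55418 named genes the numbers were 0 and 0. The identity of these transcripts was not analysed here.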
